A study of Homo sapiens with 9 samples.

Results

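The genes described here are 33 that carry a cell through mitosis, measured in P493-6, an established line of human B lymphocytes. The genes were listed by name and found as the probe sets whose only gene symbol is a listed one. All 33 were measured, by 65 of the 54675 probe sets of the array and as 33 of the 19775 genes with a symbol. Each gene was read from its probe set with the highest mean over the 9 arrays. The labels place 4 arrays in a group of high Myc expression, 3 in a group of low Myc expression and 2 in a group of no Myc expression, and they give the same line and cell type throughout. No treatment, time, culture or clone is named there, so the replicates may be technical, and a p-value here reflects only how much these arrays vary. As background, MYC in this line is under the control of tetracycline, which turns it off, and growth also depends on EBNA2, a factor of Epstein-Barr virus that here needs estrogen. The comparisons ask how the level of each gene differed between the 3 groups labelled by their expression of MYC, the transcription factor that drives growth and division in B cells.

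Mitosis is started by CDK1 bound to a cyclin, run by kinases such as PLK1 and the Aurora kinases, and held at metaphase by the spindle checkpoint until every chromosome is attached. The anaphase-promoting complex, with CDC20, then marks cyclin B and securin for destruction, and the chromosomes separate. Most of these genes are transcribed late in the cell cycle. That timing is set by the DREAM and MuvB complexes with MYBL2 and FOXM1, which act at a short element near the start site, the cell cycle genes homology region (CHR), and NF-Y acts at CCAAT boxes beside it. MYC with MAX binds the E-box CACGTG. Because these genes are transcribed only in cycling cells near division, their RNA in a culture follows both the share of such cells and the RNA in each. In these bulk samples fewer cells in mitosis and less RNA per cell cannot be told apart.

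The arrays had alike median intensities, 75.3 to 80.3. Correlation across genes was 0.976 to 0.992 within groups and 0.917 to 0.982 between groups. MYC intensity was 11326 to 15404 in high Myc and 1443 to 2526 in low Myc. It was 2803 in the library labelled no Myc replicate 1, which exceeds all 3 low Myc values, and 416 in replicate 2. The difference of MYC between low and no Myc was not called (0.87 ± 0.64, log2 ± SE, adjusted p = 0.484). With no Myc replicate 1 left out the difference was 2.25, and with no Myc replicate 2 left out it was -0.50. The 2 libraries labelled no Myc therefore do not form 1 MYC level, and every value against them is given here for the group as labelled. The excess of 3' over 5' signal of GAPDH, a sign of RNA quality, was 0.25 and 0.42 (log2) on those 2 arrays and 0.01 to 0.24 on the 7 others. That of ACTB was 0.0039 and -0.011, within the -0.074 to 0.19 of the 7 others. The part of RNA quality in the results was not tested.

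The promoters are shown first because the elements named above lie close to the start of transcription. RefSeq promoter windows of GRCh38.p14, 250 bases before to 50 bases after each start, matched 28 of the 33 genes in 37 windows. AURKA, BIRC5, TTK, TPX2 and UBE2C were not matched. The stretches below run 5′ to 3′ from 100 bases before to 30 bases after the start, and their capitals mark the CHR letters TTTGAA or TTCAAA and the CCAAT box letters CCAAT or ATTGG. For each of 8 roles in mitosis the gene shown is the one with the largest difference between high and no Myc among those with a CHR in this stretch. CCNB1 is added as a gene with CCAAT boxes and no match to the CHR letters.
CDK1, chr10:60778378-60778507, plus strand: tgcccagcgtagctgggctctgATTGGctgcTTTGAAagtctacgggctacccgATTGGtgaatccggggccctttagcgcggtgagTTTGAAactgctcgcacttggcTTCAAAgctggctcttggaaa
PLK1, chr16:23678789-23678918, plus strand: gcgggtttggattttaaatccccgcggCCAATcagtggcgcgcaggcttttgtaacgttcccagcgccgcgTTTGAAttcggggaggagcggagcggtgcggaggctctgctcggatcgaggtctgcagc
MAD2L1, chr4:120066819-120066948, minus strand: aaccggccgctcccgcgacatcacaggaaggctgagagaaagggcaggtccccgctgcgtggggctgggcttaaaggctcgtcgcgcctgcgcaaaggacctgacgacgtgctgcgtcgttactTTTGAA
NUF2, chr1:163321854-163321983, plus strand: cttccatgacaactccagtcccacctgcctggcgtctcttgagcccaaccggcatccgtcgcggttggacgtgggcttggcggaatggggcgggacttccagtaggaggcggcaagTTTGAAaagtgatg
DLGAP5, chr14:55191556-55191685, minus strand: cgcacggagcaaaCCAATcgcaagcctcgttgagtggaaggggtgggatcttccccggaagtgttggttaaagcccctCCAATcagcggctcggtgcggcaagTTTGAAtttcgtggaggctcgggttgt
KIF23, chr15:69414249-69414378, plus strand: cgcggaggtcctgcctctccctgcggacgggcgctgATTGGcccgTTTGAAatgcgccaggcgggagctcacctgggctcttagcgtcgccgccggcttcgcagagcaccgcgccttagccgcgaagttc
CDC20, chr1:43358881-43359010, plus strand: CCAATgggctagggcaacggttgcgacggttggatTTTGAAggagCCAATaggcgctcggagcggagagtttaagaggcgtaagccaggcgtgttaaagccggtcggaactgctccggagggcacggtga
MKI67, chr10:128126394-128126523, minus strand: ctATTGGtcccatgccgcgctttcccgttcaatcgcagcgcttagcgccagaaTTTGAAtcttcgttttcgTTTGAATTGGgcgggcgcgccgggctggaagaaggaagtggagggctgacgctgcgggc
CCNB1, chr5:69167050-69167179, plus strand: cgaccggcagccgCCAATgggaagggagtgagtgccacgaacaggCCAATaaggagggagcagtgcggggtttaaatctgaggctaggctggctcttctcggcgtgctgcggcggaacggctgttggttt

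In these stretches the CDK1 promoter held 3 CHR matches and 2 CCAAT boxes. PLK1, a kinase needed at nearly every step of mitosis, had 1 CHR that begins 29 bases before the start and 1 CCAAT box further upstream. In MAD2L1 and NUF2 the CHR begins 24 and 16 bases after the start, and the stretch shown held no CCAAT box. The CHR nearest the start of MKI67 shares a base with a CCAAT box read on the other strand. The letters searched were TTTGAA and TTCGAA for the CHR, CCAAT for the CCAAT box and CACGTG for the E-box, each on both strands.

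A match to the CHR letters was present in the windows of 21 of the 28 matched genes (75%). The shares were 5336 of all 27305 genes in the promoter table (19.5%) and 16.4% of all 35116 windows. The genes with no match to these exact letters were CCNA2, CCNB1, AURKB, NEK2, CENPE, KIF20A and PTTG1. Other forms of the element were not searched, so these genes may still hold a CHR. In 19 genes a CHR began within 60 bases of the start, a band for which the share of all genes was not counted. A CCAAT box was found in 23 of the 28 (82.1%), against 39.7% of all genes and 34.6% of all windows. The E-box was found in 5 of the 28 (17.9%), namely CCNB1, PLK1, CENPE, CENPF and ANLN, against 8.77% of all genes and 7.26% of all windows. Within 100 bases of the start the counts were 20 for the CHR, 20 for the CCAAT box and 0 for the E-box, against 9.09%, 25.3% and 5.37% of all genes. These are matches of letters and not measured binding sites, and a gene with several windows had more chances of a match. The map of matches shows the CHR gathered near the start, with the CCAAT boxes mostly upstream of it.

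**Figure D1:**
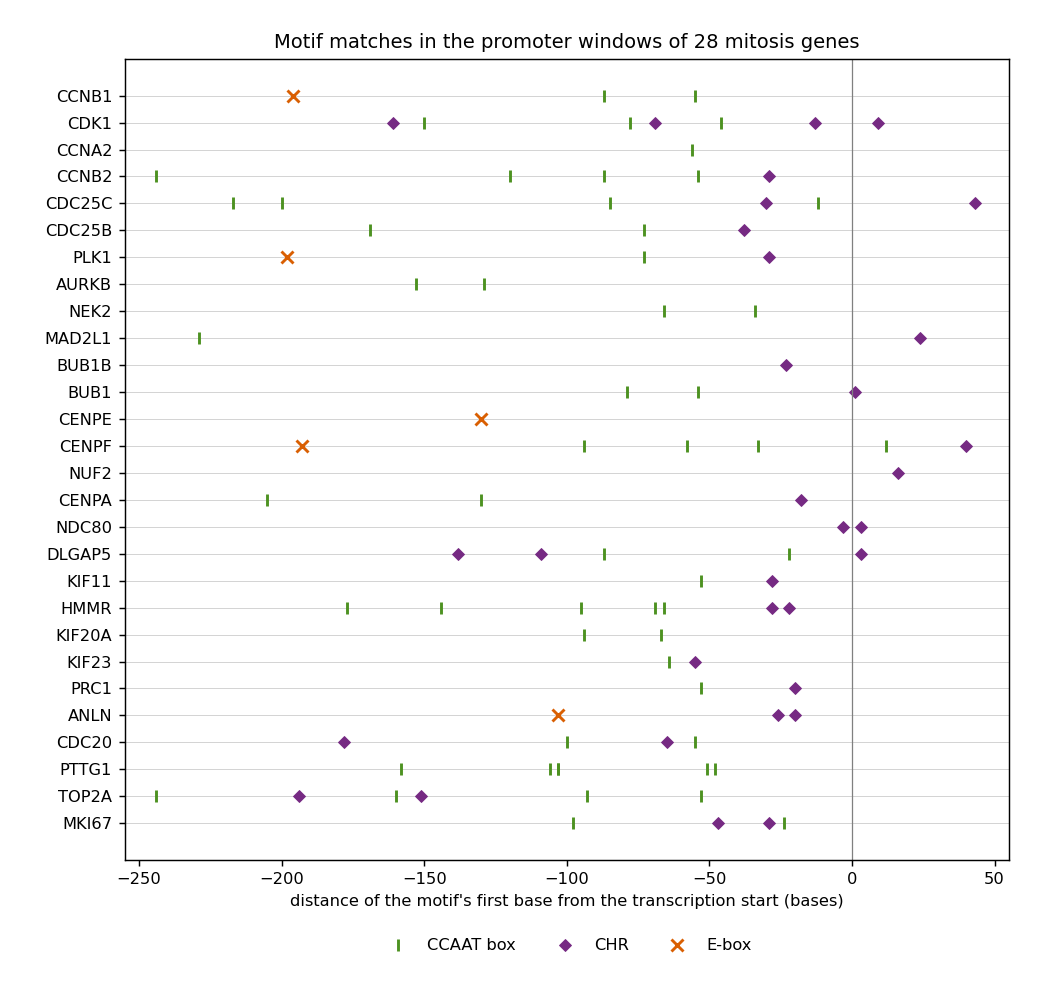
Places of letter matches in the promoter windows of the 28 matched mitosis genes, with the distance of the first base of each match from the transcription start on the horizontal axis, in bases. Purple diamonds are CHR matches, green bars CCAAT boxes and orange crosses E-boxes, with all windows of a gene on 1 line. A reader should see CHR matches within 100 bases of the start in 20 genes and no E-box there. Of all genes, 9.09% had a CHR and 5.37% an E-box within that distance.

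Nearly every mitosis gene was higher in the high Myc group and in the low Myc group than in the no Myc group. Against no Myc, 31 of the 33 were called higher in high Myc, and 14.2% of all 19775 genes were. Their median log2 difference was 1.39, which is 2.62-fold, while the median of all genes was -0.01. In low Myc 32 of the 33 were called higher, against 11.3% of all genes, with a median of 1.49 (2.81-fold) and a median of all genes of 0.00. No member was called lower in either comparison, where 9% and 8.55% of all genes were. At 2-fold or more, 27 and 30 members were called, against 7.58% and 5.55% of all genes. Calls are from limma's moderated test at an adjusted p under 0.05, and both comparisons use the same 2 no Myc arrays. Differences are given below as log2 ± SE where no fold is named, first for high and then for low Myc against no Myc.

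For almost all members the high and low Myc arrays did not overlap the no Myc arrays. In 32 of the 33 genes all 7 high and low Myc arrays were above both no Myc arrays, as in 14.9% of all genes. The exception was CDC25B. The standard deviation of log2 values had a median over members of 0.16 in high Myc, 0.25 in low Myc and 0.24 in no Myc. No Myc replicate 1 had the lower value of the 2 no Myc arrays in 28 of the 33 genes, and with it left out 27 members were called in each comparison. The medians were then 1.22 and 1.25.

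**Figure D2:**
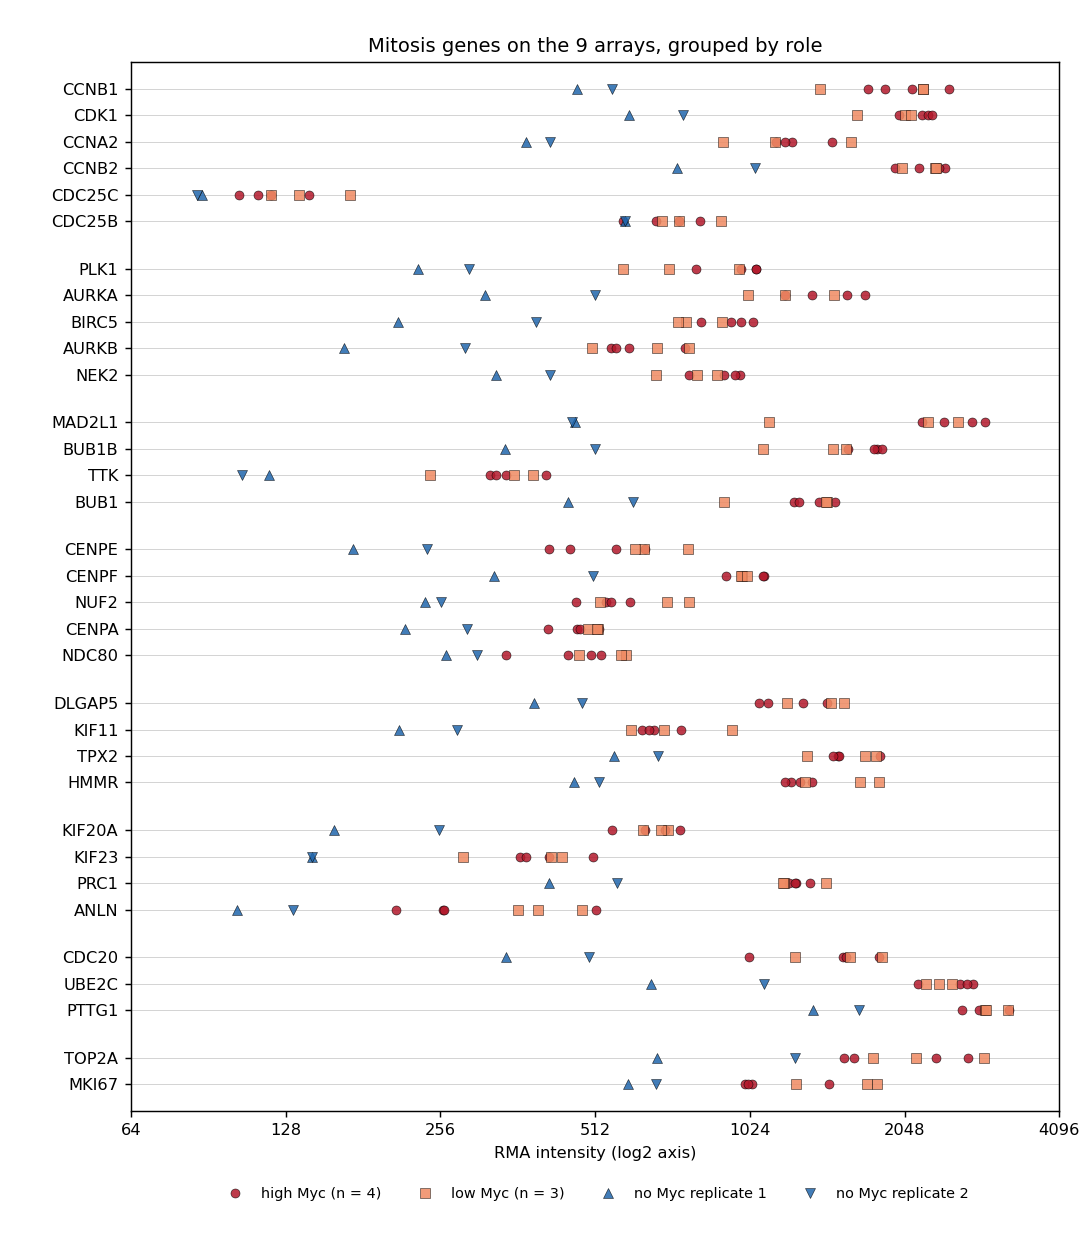
Deposited intensity of the 33 mitosis genes on each of the 9 arrays, on a log2 axis, with genes grouped by role and ordered within a role by the difference between high and no Myc. Circles are the 4 high Myc arrays, squares the 3 low Myc arrays and triangles the no Myc arrays, which lie left of all others in 32 genes. For CDC25B they lie among the high Myc arrays.

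Among the cyclins, CDK1 and its phosphatases, 4 of 6 members were called higher in high Myc and 5 of 6 in low Myc. CCNB1 (Entrez gene 891, chromosome 5), the B-type cyclin whose destruction ends mitosis, had 1738, 2501, 2117 and 1874 on the high Myc arrays, 2222, 2229 and 1401 on the low Myc arrays and 472 and 553 on the no Myc arrays. Every high and low Myc array was more than 2-fold above both no Myc arrays. The log2 difference from no Myc was 2.0 ± 0.22 (SE; adjusted p = 0.000338) in high Myc and 1.90 ± 0.23 (adjusted p = 0.000916) in low Myc. CDK1, the kinase that cyclin B activates, was 3.27-fold and 2.87-fold higher. CCNA2, the cyclin of S phase and early mitosis, was 3.19-fold and 3-fold higher. CCNB2 (Entrez gene 9133, chromosome 15), another B-type cyclin, had 1966, 2458, 2393 and 2181 on the high Myc arrays, 2350, 2362 and 2025 on the low Myc arrays and 740 and 1047 on the no Myc arrays. It was 2.55-fold higher in high Myc and just as much in low Myc, and no Myc replicate 2 was above replicate 1.

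The CDC25 phosphatases, which remove the inhibitory phosphates from CDK1, stood apart from their substrate. CDC25B (Entrez gene 994, chromosome 20) had 819, 673, 581 and 746 on the high Myc arrays, 745, 901 and 692 on the low Myc arrays and 586 and 585 on the no Myc arrays. The lowest high Myc array was below both no Myc arrays. Its differences of 0.26 ± 0.15 in high Myc (adjusted p = 0.341) and 0.40 ± 0.16 in low Myc (adjusted p = 0.133) were not called, with 95% intervals of -0.09 to 0.61 and 0.03 to 0.77. CDC25C (Entrez gene 995, chromosome 5) was dim, with 120, 142, 104 and 113 on the high Myc arrays, 171, 120 and 136 on the low Myc arrays and 88 and 86 on the no Myc arrays. All high and low Myc arrays were above both no Myc arrays, but the difference in high Myc missed the threshold (0.46 ± 0.16, adjusted p = 0.0783), while that in low Myc passed it (0.70 ± 0.17, adjusted p = 0.019). The call in low Myc was lost without no Myc replicate 1 or replicate 2, and CDC25C was called in high Myc without low Myc replicate 1 (adjusted p = 0.0459) or with quantile normalization repeated (0.04). The difference between high and low Myc was not called for either phosphatase.

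The 4 mitotic kinases and survivin were all called higher in both comparisons, by a median of 1.71 in high Myc and 1.51 in low Myc (log2). PLK1 (Entrez gene 5347, chromosome 16) had 805, 1053, 1051 and 984 on the high Myc arrays, 714, 975 and 580 on the low Myc arrays and 232 and 291 on the no Myc arrays. Its highest no Myc array was below its lowest low Myc array by close to a factor of 2, and the differences were 1.90 ± 0.21 (adjusted p = 0.000352) and 1.51 ± 0.22 (adjusted p = 0.00184). AURKA (Entrez gene 6790, chromosome 20), which builds the spindle poles, had 1198, 1583, 1715 and 1355 on the high Myc arrays, 1198, 1492 and 1014 on the low Myc arrays and 313 and 511 on the no Myc arrays, and was 3.62-fold and 3.05-fold higher. AURKB and BIRC5 (survivin) belong to the chromosomal passenger complex, which corrects wrong attachments. AURKB (Entrez gene 9212, chromosome 17) had 550, 767, 596 and 562 on the high Myc arrays, 675, 778 and 505 on the low Myc arrays and 166 and 286 on the no Myc arrays, and BIRC5 (Entrez gene 332, chromosome 17) had 822, 1039, 984 and 940 on the high Myc arrays, 768, 905 and 741 on the low Myc arrays and 212 and 393 on the no Myc arrays. In AURKA, AURKB and BIRC5 no Myc replicate 2 was well above replicate 1 and below each of the 7 other arrays. AURKB was 2.81-fold and 2.95-fold higher and BIRC5 3.26-fold and 2.78-fold. The smallest difference of this role was that of NEK2 (Entrez gene 4751, chromosome 1), a kinase of centrosome separation, with 914, 778, 982 and 958 on the high Myc arrays, 809, 883 and 672 on the low Myc arrays and 329 and 418 on the no Myc arrays. The high and low Myc groups still lay wholly above no Myc, by 1.29 ± 0.15 (adjusted p = 0.000482) and 1.08 ± 0.16 (adjusted p = 0.0021).

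The spindle assembly checkpoint held the largest difference of the 33 genes. MAD2L1 (Entrez gene 4085, chromosome 4), the checkpoint protein that holds CDC20 inactive, had 2935, 2442, 2775 and 2215 on the high Myc arrays, 2598, 2276 and 1115 on the low Myc arrays and 468 and 462 on the no Myc arrays. Low Myc replicate 3 was below the 6 other high and low Myc arrays and still more than 2-fold above no Myc. The differences were 2.47 ± 0.30 (adjusted p = 0.00049) in high Myc, which is 5.54-fold, and 2.01 ± 0.31 (adjusted p = 0.00238) in low Myc, 4.03-fold. BUB1B, its partner in the same complex, was 4.2-fold and 3.27-fold higher, and TTK, the kinase that starts the checkpoint, 3.12-fold and 2.89-fold. BUB1 (Entrez gene 699, chromosome 2), the kinase that gathers checkpoint proteins at the kinetochore, had 1395, 1248, 1503 and 1274 on the high Myc arrays, 1448, 1443 and 912 on the low Myc arrays and 454 and 606 on the no Myc arrays. All high and low Myc arrays were above no Myc, with differences of 1.37 ± 0.20 (adjusted p = 0.00138) and 1.24 ± 0.22 (adjusted p = 0.00404). The second was lost without no Myc replicate 1 (1.03, adjusted p = 0.0511).

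At the centromere and kinetochore, the chromosome site that spindle microtubules grip, all 5 members were called higher in both comparisons. CENPE (Entrez gene 1062, chromosome 4), a motor that carries chromosomes to the spindle equator, had 417, 457, 641 and 562 on the high Myc arrays, 638, 777 and 613 on the low Myc arrays and 173 and 241 on the no Myc arrays. Every high and low Myc array was above both no Myc arrays, and the differences were 1.33 ± 0.20 (adjusted p = 0.00155) and 1.72 ± 0.21 (adjusted p = 0.00105). CENPF was 2.51-fold and 2.45-fold higher, and CENPA, the histone that marks the centromere, 1.88-fold and 2.03-fold. NUF2 and NDC80 are subunits of 1 complex, the microtubule coupler of the kinetochore. NUF2 was 2.16-fold and 2.67-fold higher. NDC80 (Entrez gene 10403, chromosome 18) had 344, 502, 526 and 453 on the high Myc arrays, 588, 576 and 477 on the low Myc arrays and 263 and 301 on the no Myc arrays. All high and low Myc arrays were above both no Myc arrays, yet high Myc replicate 1 came close to the no Myc arrays, and the differences of 0.68 ± 0.18 (adjusted p = 0.0217) and 0.95 ± 0.19 (adjusted p = 0.00706) were the smallest of this role. The call in high Myc was lost without high Myc replicate 3 (adjusted p = 0.0532), no Myc replicate 1 (0.177) or no Myc replicate 2 (0.0635), and that in low Myc without no Myc replicate 1 (0.0734).

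The 4 spindle assembly members differed from no Myc by nearly the same amount, from 1.36 to 1.49 in high Myc and from 1.38 to 1.70 in low Myc (log2). DLGAP5 (Entrez gene 9787, chromosome 14), a microtubule-bundling protein, had 1111, 1448, 1299 and 1067 on the high Myc arrays, 1558, 1475 and 1212 on the low Myc arrays and 390 and 483 on the no Myc arrays. HMMR (Entrez gene 3161, chromosome 5), a microtubule-binding protein of the spindle, had 1231, 1283, 1350 and 1197 on the high Myc arrays, 1824, 1679 and 1310 on the low Myc arrays and 465 and 520 on the no Myc arrays. Both genes were more than 2-fold above no Myc on every high and low Myc array. DLGAP5 differed by 1.49 ± 0.16 (adjusted p = 0.000352) and 1.70 ± 0.17 (adjusted p = 0.000524), and HMMR by 1.36 ± 0.14 (adjusted p = 0.000257) and 1.69 ± 0.14 (adjusted p = 0.00032). The motor KIF11, which pushes the poles apart, was 2.78-fold and 3.03-fold higher. TPX2, the activator of Aurora A, was 2.58-fold and 2.6-fold higher.

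In the central spindle and cytokinesis role all 4 members were called in both comparisons. KIF20A (Entrez gene 10112, chromosome 5), a motor of the central spindle, had 552, 748, 640 and 700 on the high Myc arrays, 710, 634 and 688 on the low Myc arrays and 159 and 254 on the no Myc arrays. The high and low Myc arrays were at least 2-fold above both no Myc arrays, by 1.70 ± 0.19 (adjusted p = 0.000359) and 1.75 ± 0.20 (adjusted p = 0.000793) on average. KIF23 (Entrez gene 9493, chromosome 15), of the centralspindlin complex, had 365, 508, 416 and 375 on the high Myc arrays, 441, 421 and 283 on the low Myc arrays and 144 and 144 on the no Myc arrays. Low Myc replicate 3 was the lowest of its high and low Myc arrays. KIF23 was 2.87-fold and 2.6-fold higher, and PRC1, which cross-links antiparallel microtubules, 2.62-fold and 2.62-fold. ANLN (Entrez gene 54443, chromosome 7), a scaffold of the contractile ring, had 259, 514, 260 and 210 on the high Myc arrays, 482, 363 and 396 on the low Myc arrays and 103 and 132 on the no Myc arrays. High Myc replicate 2 was close to 2-fold above the other high Myc arrays. The differences were 1.33 ± 0.31 (adjusted p = 0.0138) and 1.82 ± 0.33 (adjusted p = 0.00503), and both calls were lost without no Myc replicate 1 (adjusted p = 0.131 and 0.0578).

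CDC20, UBE2C and PTTG1, the partners and substrate of the anaphase-promoting complex, were all called higher in both comparisons. CDC20 (Entrez gene 991, chromosome 1), its activator, had 1020, 1824, 1557 and 1572 on the high Myc arrays, 1603, 1851 and 1253 on the low Myc arrays and 343 and 499 on the no Myc arrays. High Myc replicate 1 was below the other high and low Myc arrays and more than 2-fold above no Myc. The differences were 1.82 ± 0.25 (adjusted p = 0.000988) and 1.90 ± 0.27 (adjusted p = 0.00162). UBE2C, the ubiquitin-conjugating enzyme that works with the complex, was 3.02-fold and 2.81-fold higher. PTTG1 (Entrez gene 9232, chromosome 5), the securin that restrains separase, had 2655, 2919, 2854 and 3267 on the high Myc arrays, 3260, 2931 and 2955 on the low Myc arrays and 1358 and 1671 on the no Myc arrays. Its differences of 0.95 ± 0.12 (adjusted p = 0.000646) and 1.02 ± 0.13 (adjusted p = 0.00107) were close to 2-fold and lay beyond the replicate spread. PTTG1 has near-identical gene copies, and its probe set may read them too.

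Both chromosome structure genes were called higher in both comparisons. TOP2A (Entrez gene 7153, chromosome 17), the topoisomerase that untangles sister chromatids, had 1560, 1632, 2716 and 2354 on the high Myc arrays, 1776, 2921 and 2157 on the low Myc arrays and 676 and 1251 on the no Myc arrays. No Myc replicate 2 was well above replicate 1, and the high Myc arrays fell into a lower and a higher pair. The differences were 1.13 ± 0.32 (adjusted p = 0.0306) and 1.28 ± 0.33 (adjusted p = 0.0256). The call in high Myc was lost without high Myc replicate 3 (adjusted p = 0.0699), high Myc replicate 4 (0.0735) or no Myc replicate 1 (0.318). The call in low Myc was lost without low Myc replicate 2 (0.0747) or no Myc replicate 1 (0.241).

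MKI67 (Entrez gene 4288, chromosome 10), the coat of mitotic chromosomes used in pathology to count dividing cells, had 1002, 1458, 1033 and 1017 on the high Myc arrays, 1732, 1810 and 1260 on the low Myc arrays and 594 and 673 on the no Myc arrays. Of the high Myc arrays, 3 lay close together and replicate 2 was apart from them. The difference from no Myc was 0.82 ± 0.20 (adjusted p = 0.0145) in high Myc and 1.32 ± 0.21 (adjusted p = 0.00244) in low Myc. The first was lost without no Myc replicate 1 (adjusted p = 0.128) or replicate 2 (0.054).

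Between high and low Myc no mitosis gene passed the test on its brightest probe set, although MYC itself differed by 2.70 ± 0.53 (log2 ± SE), which is 6.49-fold (adjusted p = 0.0321, and up to 0.0988 without replicate 1, 3 or 4 of high Myc or replicate 1 or 3 of low Myc, and 0.119 with a replicate block). By limma 0 of the 33 were called in either direction, against 3.6% of all genes, and 2 had an unadjusted p under 0.05. Those were HMMR (-0.33 ± 0.12, adjusted p = 0.196) and MKI67 (-0.51 ± 0.17, adjusted p = 0.162), both with lower means in high Myc. With quantile normalization repeated on the deposited values, HMMR (-0.43, adjusted p = 0.0299) and MKI67 (-0.61, adjusted p = 0.0308) were called, and likewise with array weights. A dimmer probe set of MKI67 passed when all probe sets were tested together (-0.65, adjusted p = 0.0445), and none of the other 3 did. The median difference over members was -0.01, with 15 positive and 18 negative, and the median of all genes was 0.00. A missed threshold does not show equal levels, so the intervals are given. The 95% interval of the difference lay wholly within 2-fold either way for 31 members and within 1.5-fold for 20. The exceptions at 2-fold were MAD2L1, with an interval of 0.912 to 2.07-fold, and ANLN, with 0.46 to 1.1-fold. BUB1B was the single member whose high Myc arrays were all above its low Myc arrays (1589 to 1848 against 1088 to 1577, adjusted p = 0.337), and groups were separate in this way, in either direction, for 12.7% of all genes.

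By role, the sign of these uncalled differences was not the same throughout. All 4 checkpoint genes and 4 of the 5 genes for mitotic kinases and survivin had positive values, with medians of 0.24 and 0.23 (log2). Of the centromere and kinetochore genes 4 of 5 had negative values and of the spindle assembly genes 4 of 4, with medians of -0.27 and -0.16. These signs did not hold in every fit that left out 1 array. Of the checkpoint genes, BUB1 and TTK fell as low as -0.098 and -0.090, while MAD2L1 and BUB1B stayed positive (lowest 0.083 and 0.20). Of the spindle assembly genes, KIF11 and TPX2 rose as high as 0.058 and 0.078, while HMMR and DLGAP5 stayed negative. Without high Myc replicate 2, ANLN (-0.76, adjusted p = 0.0256) and MKI67 (-0.64, adjusted p = 0.0423) were called lower in high than in low Myc. Low Myc replicate 3 was below both other low Myc arrays in 25 members.

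**Figure D3:**
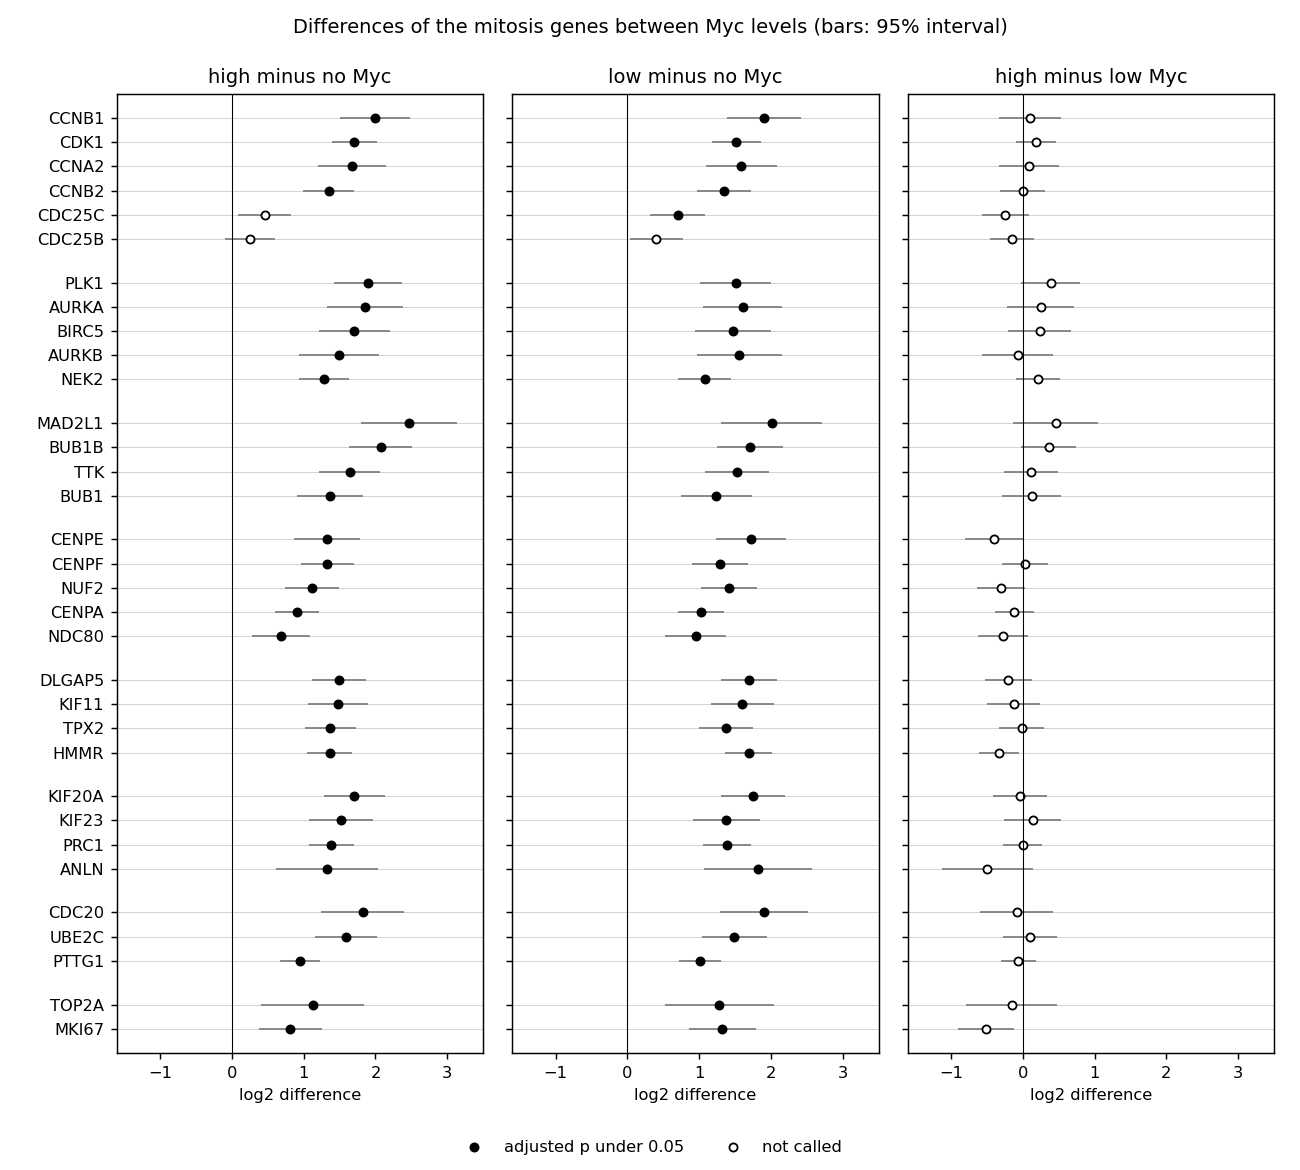
Log2 differences of the 33 mitosis genes in the 3 comparisons, each with its 95% interval from the fit of all 9 arrays. Filled points passed an adjusted p of 0.05 and open points did not. In the first 2 panels 31 and 32 points are filled and lie right of 0, and in the third, high against low Myc, none is filled and the points lie on both sides of 0.

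The level of the mitosis genes on single arrays did not run in the order of MYC. Each member's log2 value was set against its mean over 9 arrays, and the median over members lay between 0.16 and 0.40 in high Myc and between 0.12 and 0.44 in low Myc. It was -1.35 on no Myc replicate 1 and -0.92 on replicate 2. The library labelled no Myc replicate 1, with a MYC intensity of 2803, was the lowest of the 9 arrays for 28 members, and replicate 2, with 416, for 4. The median of replicate 2 minus replicate 1 was 0.35 (log2) over members and 0 over all genes. The arrays fall into separate groups, so no correlation is given.

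**Figure D4:**
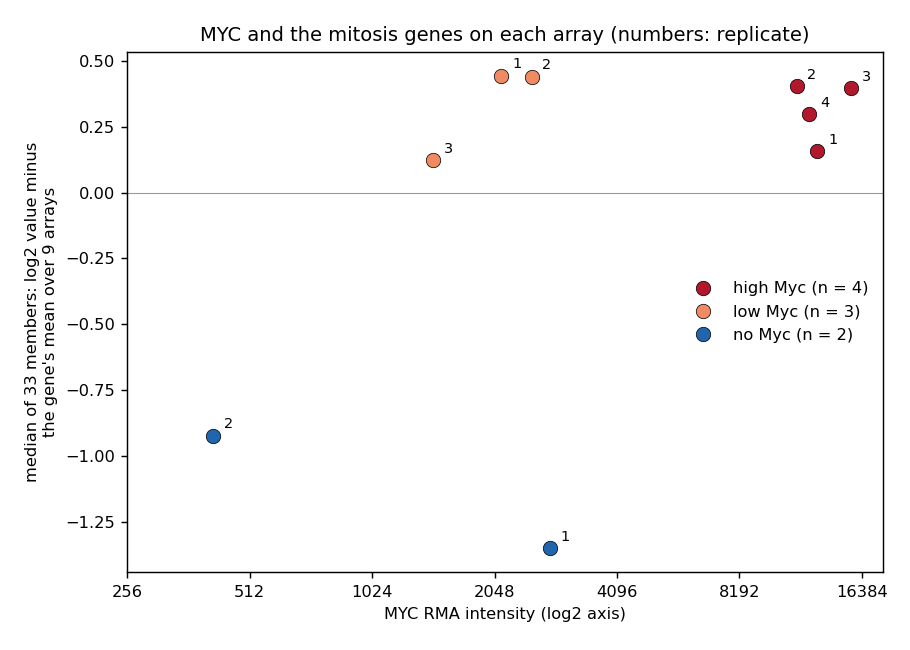
MYC intensity on each array, on a log2 axis, against the median over the 33 mitosis genes of the log2 value minus that gene's mean over the 9 arrays. Points are arrays, coloured by group and numbered by replicate. The 7 high and low Myc arrays lie between 0.12 and 0.44 over a wide range of MYC, and no Myc replicate 1, to the right of all low Myc arrays, has the lowest median, -1.35.

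Of the 65 probe sets, 50 were called higher in high Myc and 51 in low Myc, when all 54675 were tested together, against 9.24% and 6.73% of all probe sets, and 0 were lower. Only probe sets with a mean log2 over 5 were set against each other. Of the 17 members with several probe sets, 7 had such a pair differing by over 1 (log2) in the comparison of high with no Myc. These were AURKA, AURKB, BIRC5, BUB1, CCNB2, KIF23 and TOP2A. In all but TOP2A the probe set used differed by over 1 from a dimmer one. For TOP2A the pair lay among the dimmer probe sets (1.40 and 0.29), and the one used stood at 1.13. For CCNB2 another probe set gave 130 to 155 on every array, where the one used gave 740 to 2458. For BUB1 the 2 brightest probe sets were higher in high than in no Myc by 1.37 and 1.57 (adjusted p = 0.00244 and 0.00191 over all probe sets), and the next stayed at 82 to 119. TOP2A had another bright probe set, with 2069, 1986, 1706 and 1517 on the high Myc arrays and 692 and 672 on the no Myc arrays. There high Myc replicates 1 and 2 were the higher pair and not the lower one. On it the differences were 1.40 and 1.44 (adjusted p = 0.000916 and 0.00166 over all probe sets). With the median over the probe sets of each gene in place of the brightest, the values of CCNB2 (-0.043 and -0.071) and BUB1 (-0.015 and 0.11) were not called against no Myc, nor was CDC25C in low Myc (0.24, adjusted p = 0.419).

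Other genes of the mitotic machinery, from lists that do not hold the 33, were also more often called higher than all genes were. Of all genes, 14.2% were called higher in high Myc and 11.3% in low Myc. Of the 32 measured other kinetochore and checkpoint genes, 21 were higher in high Myc and 20 in low Myc, with medians of 0.89 and 1.01 (log2). TRIP13, the ATPase that recycles the checkpoint protein MAD2, differed by 2.62 and 1.58, MIS18A, needed to load CENPA, by 2.16 and 1.98, and SPC25, of the NDC80 complex, by 1.94 and 2.03. Of 34 other spindle, centrosome and cytokinesis genes, 27 and 25 were higher, with medians of 1.04 and 1.13. Without no Myc replicate 1 the counts were 18 and 17 for the kinetochore list and 19 and 20 for the spindle list. ECT2, which activates RhoA at the cleavage site, differed by 1.72 and 1.94, HAUS6, of the augmin complex, by 1.71 and 0.88, and ARHGAP11A by 1.67 and 1.42, the last dim with 29 and 30 on the no Myc arrays. The calls of TRIP13 and HAUS6 in low Myc were lost without no Myc replicate 1 (adjusted p = 0.0591 and 0.0604), and that of HAUS6 also without replicate 2 (0.0528). NUMA1, a spindle pole protein, was lower in low Myc (-0.58, adjusted p = 0.00666), and that call was lost without no Myc replicate 2 (0.0557).

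Condensins fold mitotic chromosomes and cohesin holds sister chromatids together until separase cuts it. Of 22 such genes 16 and 14 were higher, with medians of 0.77 and 0.92, and without no Myc replicate 1 the counts were 12 and 10. The condensin subunits NCAPG (1.70 and 1.85), NCAPD3 (1.48 and 1.62) and SMC2 (1.46 and 1.48) had the largest differences in high Myc. Of the 16 measured anaphase-promoting complex genes 7 and 6 were higher, against 14.2% and 11.3% of all genes, with medians of 0.45 and 0.24. With the median over the probe sets of each gene, 3 were higher and 2 lower in low Myc, and 2 were lower in high Myc. UBE2S, which extends ubiquitin chains for the complex, differed by 2.16 and 1.70, the inhibitor FBXO5 by 1.22 and 1.26 and the subunit CDC23 by 0.92 and 0.98. With the median over its probe sets CDC23 was not called by limma (0.61 and 0.54, adjusted p = 0.0542 and 0.112). The subunit ANAPC16 was lower in high Myc (-0.79, adjusted p = 0.00427), and its low Myc value was -0.50 (adjusted p = 0.0549, called without high Myc replicate 2 or replicate 4). Without no Myc replicate 1 the counts of this complex were 4 and 4, and without no Myc replicate 2 they were 6 and 4.

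Among 23 other mitotic kinases and entry brakes, the comparison with high Myc called 10 higher and 2 lower, and that with low Myc 8 higher and 2 lower. Of all genes, 14.2% and 11.3% were called higher and 9% and 8.55% lower, so a few lower calls do not set this list apart. PBK, a kinase active in mitosis, differed by 2.76 and 2.26, the phosphatase CDKN3 by 1.81 and 1.62 and the CDK-binding protein CKS1B by 1.63 and 1.38. NEK6 (-0.60 and -0.77) and NEK9 (-0.40 and -0.37), kinases of 1 cascade in spindle assembly, were the 2 lower genes, and without no Myc replicate 1 or replicate 2 neither was called in either comparison. The NEK6 call in high Myc also fell away without replicate 1 or 4 of high Myc, and that in low Myc without replicate 2 of low Myc. The NEK9 call in low Myc fell away without replicate 2 or 3 of high Myc, or replicate 1 or 2 of low Myc. Without no Myc replicate 1, 5 genes of this list were higher in high Myc. Of 18 regulators of G2 and M phase transcription, 9 rose and 2 fell in high Myc, and 7 rose and 1 fell in low Myc. TFDP1, the E2F partner, differed by 1.63 and 1.36, FOXM1 by 1.62 and 1.77 and MYBL2 by 1.61 and 1.32. RBL2, the pocket protein of the DREAM complex, was lower in high Myc (-0.63, adjusted p = 0.0223), as was the NF-Y subunit NFYC (-0.39 and -0.53). Without no Myc replicate 1 the regulators counted 4 higher in each comparison and 0 lower, the call of MYBL2 in low Myc was lost (adjusted p = 0.0688), and without high Myc replicate 3 or replicate 4 so was that of RBL2 (0.0585 and 0.0556). The NFYC call in high Myc fell away without replicate 2 or 4 of high Myc, replicate 1 of low Myc or either no Myc array.

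DNA replication genes, which act in S phase, before mitosis, were taken as the list for comparison. Of 44, 37 were higher in each comparison with a median of 1.21 in both, against medians of 1.39 and 1.49 over the mitosis genes. Without no Myc replicate 1 the replication counts were 27 and 28. The licensing factor CDC6 differed by 2.72 and 2.58, DBF4, the activator of the CDC7 kinase, by 2.41 and 2.24 and the polymerase subunit POLE2 by 2.26 and 2.08. Between high and low Myc, 3.6% of all genes were called. In these lists 1 of the 34 spindle genes was called higher, 1 of the 23 kinases and brakes higher and 1 lower, and 0 of the 44 replication genes. The 3 genes were HAUS6 (0.83, adjusted p = 0.0233), CKS2 (0.45, adjusted p = 0.0435) and GADD45B (-1.22, adjusted p = 0.0332), a stress protein that restrains CDK1. The call of HAUS6 was lost in 4 of 9 fits that left out 1 array (replicate 1, 3 or 4 of high Myc, or replicate 1 of low Myc), and those of CKS2 and GADD45B in 8 of 9. The only such fit that called CKS2 was without low Myc replicate 1, and for GADD45B it was without high Myc replicate 2. With a replicate block none of the 3 was called (adjusted p = 0.105, 0.108 and 0.108). TRIP13 of the kinetochore list missed the threshold (1.04, adjusted p = 0.0603). It was called with quantile normalization repeated (adjusted p = 0.0278), with genes under a mean log2 of 5 left out (0.0484) and with array weights (0.00954). Of the 9 fits that left out 1 array, 1 called it, that without low Myc replicate 2 (1.38, adjusted p = 0.00716).

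**Figure D5:**
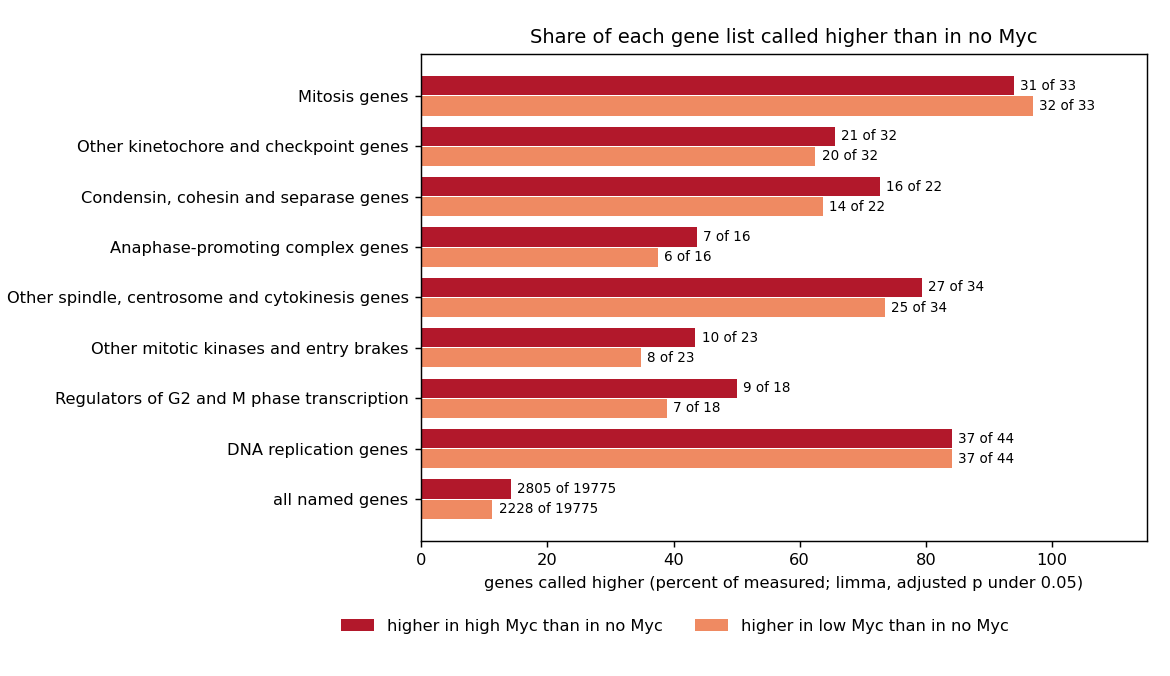
Percent of measured genes in each list called higher than in no Myc, for high Myc (dark bars) and low Myc (light bars), with the counts printed beside the bars. The 33 mitosis genes stand at 31 and 32 called, DNA replication genes at 37 of 44, and all 19775 genes at 14.2% and 11.3%.

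Markers of B cells were at high levels on every array, and other lineages were mostly dim. The 9 measured B cell markers of 10 summed to 28756 to 36160 in high Myc, 33819 to 37671 in low Myc and 55276 to 65121 in no Myc, and 7 were called lower in high Myc and 5 in low Myc than in no Myc. The 9 measured myeloid markers of 10 summed to 414 to 481, 382 to 431 and 1669 to 2509. LYZ and ITGAM, which reached 775 and 1480 on a no Myc array, were the 2 called, and MPO, ELANE, CD14, S100A8 and S100A9 did not exceed 58 on any array. T and NK cell markers summed to 869 to 1137 over all arrays, erythroid and platelet markers to 554 to 628 and fibroblast and epithelial markers to 963 to 1522. Of these 3 lists, the T cell marker CD2 was called lower in high than in no Myc (-0.90, adjusted p = 0.0431), with 60 to 70 on the high Myc arrays and 154 and 94 on the no Myc arrays. The epithelial cadherin CDH1 was called higher in low than in no Myc (3.22, adjusted p = 0.0154), with 507, 147 and 168 on the low Myc arrays and 21 and 29 on the no Myc arrays. Most B cell markers, and LYZ and ITGAM of the myeloid list, were higher in no Myc, the opposite direction to the mitosis genes. The myeloid list as a whole was not, with medians of -0.09 in high and -0.12 in low Myc (log2). The part of these markers in the result was not tested.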

How the data were processed

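RNA of P493-6 cells was read on 9 single-colour Affymetrix arrays. Per the labels' protocols, Qiagen RNeasy was used for extraction and biotin as the label. The authors deposited RMA intensity on a linear scale, per the submitters' processing notes, which name no version. RMA makes the distributions of all arrays alike, so a change in total RNA per cell cannot be seen. No detection calls were used.

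The log2 of the deposited intensity was fitted with limma 3.58.1 in R 4.3.3, with all 9 arrays in 1 fit (6 residual degrees of freedom), two-sided moderated tests and Benjamini-Hochberg adjustment over all 19775 genes per comparison. Of the 54675 probe sets, 41097 had 1 symbol, and each gene was read from its brightest probe set. The fit was tested on simulated data. The members and gene lists were chosen with earlier results of these data known.

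Values on every array are given for the members with the largest and the smallest difference between high and no Myc in each role, those not called against no Myc in either comparison and any whose probe sets disagree. From each other list up to 3 called genes with the largest difference are named, and those called against the list's direction or between high and low Myc. Every other member is named with its role. Genes in 10 list entries were not measured. Promoters are RefSeq's, and motifs were searched as exact letters.

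Alternatives were a repeat of quantile normalization, centring arrays on the median, leaving out genes under a mean log2 of 5, the median over the probe sets of each gene, a fit of every probe set, limma's trended robust prior, array weights, fits of only the 2 groups compared, a replicate block, stricter calls and each array left out.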

Additional observations from a re-analysis of the deposited data

Results flagged for a closer look

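In the high Myc group of 4, 34 values were examined for an array far from the others, 33 genes and MYC, and 2 had a gap to the nearest array too large for a group of this size. Chance alone marks about 1 in 20 such groups. For TPX2, high Myc replicate 2 read 1836 against a next value of 1529, and the gap was 0.867 of the group's range on the log2 scale. For MKI67 the same array read 1458 against 1033, a gap of 0.919 of the range.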

How the results depend on the processing

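The number of arrays limits all values, above all the 2 no Myc arrays, whose MYC levels differ. The count of members called between high and low Myc moved from 0 to 2 with quantile normalization repeated and to 2 with array weights, in each case HMMR (-0.43 and -0.43) and MKI67 (-0.61 and -0.60), and it was 0 to 2 with 1 array left out. Members called against no Myc were 27 to 32 in each comparison with 1 array left out. The median in low Myc against no Myc was 1.25 to 1.67 in those fits. Arrays with the same replicate number deviated together in 4 of 7 pairs (correlation over 0.1, range -0.31 to 0.47). Arrays with different numbers did so in 7 of 19 pairs (range -0.47 to 0.44). The ranges overlap, and the numbers were not taken as pairs. Among the replicate 1 arrays the correlations were 0.25, 0.45 and 0.47. Among the replicate 2 arrays they were 0.03, 0.07 and 0.10, and between high and low Myc replicate 3 it was -0.31. Why the replicate 1 arrays deviated together was not tested. Correlations with the 2 no Myc arrays are mirror images by construction. With a replicate block 29 members were called in high Myc, 32 in low Myc and 0 between them; NDC80 (0.67, adjusted p = 0.0841) and TOP2A (0.94, adjusted p = 0.073) were lost, and no other member's call changed. Outside the members the block ended the calls of NEK6 (-0.62 and -0.81, adjusted p = 0.14 and 0.0737), NEK9 (-0.34 and -0.35, 0.085 and 0.086) and NFYC (-0.37 and -0.53, 0.138 and 0.0529) against no Myc, and those of MYC, HAUS6, CKS2 and GADD45B between high and low Myc. The fit with quantile normalization repeated also lost TOP2A in high Myc (0.93, adjusted p = 0.0726). Fits of only the 2 groups compared called CDC25C in high Myc (adjusted p = 0.0482) and lost CDC25C (0.0519) and TOP2A (0.0549) in low Myc. With the median over the probe sets of each gene the sign turned for CCNB2 (-0.043 in high and -0.071 in low Myc), BUB1 in high Myc (-0.015) and NFYC (0.12 and 0.11), by construction from dimmer probe sets. Of the 114 values of the 6 main results under these alternatives, 110 stayed within their limits. The cause of the moves was not tested.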
